A study of Mus musculus with 6 samples.

Results

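The heat shock proteins and chaperones described here are 39 genes, chosen by gene name from the 54532 genes of the deposited table. They comprise 9 genes of the HSP70 and HSP110 family of the cytosol and nucleus, 5 small heat shock proteins counted with Bag3, 6 cytosolic HSP90 genes and co-chaperones, 5 cytosolic J proteins, 4 mitochondrial chaperones, 8 chaperones of the endoplasmic reticulum (ER) and 2 heat shock factors. Each of the 39 genes was in the table and passed the filter on low values (3 or more libraries with an FPKM of 1 or more), which kept 11277 genes. FPKM is fragments per kilobase of gene length, scaled to the size of the library.

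RNA-seq was made from brain endothelial cells of Df(h22q11)/+ mice, whose heterozygous deletion models the human 22q11.2 deletion syndrome. The untreated group (base chow) has 2 libraries from females, F_1 and F_2, and 1 from males, M_1. The bezafibrate group (chow with 0.5% bezafibrate, an agonist of the PPAR nuclear receptors, for 4 weeks) has 1 library from females, F_1, and 2 from males, M_1 and M_2. Mice in both groups were 12 to 16 weeks old, carried the deletion, and were pooled by 3 brains of like sex, genotype and chow into each library. Wild-type mice were not analysed here, so no value below bears on the deletion itself. The libraries came from separate pools, and p-values measure the spread between pools. Live cells positive for CD31 and negative for CD45 and PDGFRb were sorted after digestion of the minced brain in papain at 35 °C for 90 minutes and then in collagenase and neutral protease at 35 °C for 30 minutes, in both groups alike.

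Chaperones hold unfolded or partly folded proteins and help them reach their native form. HSP70 proteins bind exposed stretches of a client in a cycle driven by ATP, J proteins bring the client and start that cycle, nucleotide exchange factors such as HSP110 reset it, and HSP90 takes over some clients at a later stage. In stressed cells, unfolded protein frees heat shock factor 1 (HSF1), which binds heat shock elements in the promoters of inducible chaperone genes, while the ER answers with its own set of chaperones through the unfolded protein response. In endothelial cells HSP90 is known for binding nitric oxide synthase, and small heat shock proteins for guarding the actin skeleton.

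The sequences below show promoter elements that genes of this kind are known for, though not every member held a match. They come before the values because heat shock and ER stress elements fell in different genes. RefSeq promoters of GRCm38.p6 (250 bases before to 50 after the start) were found for 31 of the 39 genes, in 39 windows. Both strands were searched for heat shock elements, written as units NGAAN in alternating orientation, and for the ER stress element (ERSE), written as CCAAT, 9 bases and CCACG. A pair of units (GAANNTTC or TTCNNGAA) stood in 13 of the 39 windows (33.3%), against 12.8% of all 32851 promoter windows. It stood before the inducible genes Hspa1a, Hspa1b, Hspb1 and Hsph1, and before Dnaja1, Dnajb4, Dnajb6, Fkbp4, Hspb6, Hspd1 and Hspe1. The inducible genes Dnajb1 and Bag3 had windows without a pair, Hsp90aa1 had no window, and no window of an ER chaperone held a pair. A run of 3 units stood in 4 windows (10.3%), those of Hspd1, Hspe1 and Dnajb6, against 0.46% of all windows. The matching windows of Dnajb6 overlap and hold the same site, as do those of Hspd1 and Hspe1, so this share counts sites more than once. The share of windows with a pair does so too, for these genes and for Hsph1, whose matching windows also hold the same site. The ERSE stood in 4 windows (10.3%), against 0.113% of all, and each of the 4 belonged to an ER chaperone, out of 6 ER chaperones with a promoter. A match is a description of the letters in the window, not a measured site. The first pair below is the stretch of 250 bases before the start of the inducible HSP70 genes Hspa1a (chr17:34972157-34972406, minus strand) and Hspa1b (chr17:34959239-34959488, minus strand), shown because the genes are near copies of each other, with the pair of heat shock units in capitals.
Hspa1a: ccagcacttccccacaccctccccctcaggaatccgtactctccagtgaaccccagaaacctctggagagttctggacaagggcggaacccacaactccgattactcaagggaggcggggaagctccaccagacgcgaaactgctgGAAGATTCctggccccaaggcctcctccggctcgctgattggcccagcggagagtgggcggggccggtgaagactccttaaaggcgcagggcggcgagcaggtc
Hspa1b: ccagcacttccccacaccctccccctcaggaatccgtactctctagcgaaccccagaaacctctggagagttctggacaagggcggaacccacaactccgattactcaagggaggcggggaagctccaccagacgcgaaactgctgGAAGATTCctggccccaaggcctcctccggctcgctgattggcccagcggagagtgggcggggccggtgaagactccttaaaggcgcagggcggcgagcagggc

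The Hspa1a and Hspa1b stretches were identical at 247 of 250 bases (98.8%) and differed by C44T, T47C and T249G, with Hspa1a first and positions counted from the first printed base. The next 3 stretches hold heat shock units in capitals, 4 alternating units (overlapping runs of 3) in Hspd1 and Hspe1 and a run of 3 in Dnajb6. Hspd1 (chr1:55088053-55088082, minus strand) and Hspe1 (the same bases on the plus strand) encode the mitochondrial partners HSP60 and HSP10, lie head to head and share this site. Dnajb6 (chr5:29735843-29735872, plus strand) encodes a cytosolic J protein.
Hspd1: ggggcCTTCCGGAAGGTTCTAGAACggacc
Hspe1: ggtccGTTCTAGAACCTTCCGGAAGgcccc
Dnajb6: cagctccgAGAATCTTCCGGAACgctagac

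The last set holds the ERSE in capitals, from CCAAT to CCACG, in the promoters of Hspa5 (chr2:34772019-34772048, plus strand), Hsp90b1 (chr10:86705633-86705662, minus strand, the upstream of its pair of elements), Canx (chr11:50325795-50325824, minus strand) and Dnajc3 (chr14:118937821-118937850, plus strand).
Hspa5: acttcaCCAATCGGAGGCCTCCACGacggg
Hsp90b1: acaagcCCAATCGCAAGGAGCCACGcttcg
Canx: tattgaCCAATCACCACGCTCCACGaagaa
Dnajc3: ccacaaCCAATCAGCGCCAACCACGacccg

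Inducible heat shock proteins were among the most abundant transcripts of these cells. Hspb1, Hspa1b and Hspa1a ranked 2, 3 and 5 of the 54532 genes by mean FPKM. Together they held between 4.92% and 6.06% of the summed FPKM of a library and between 3.13% and 3.99% of its reads. All 39 genes held between 5.86% and 7.16% of the summed FPKM and between 4.16% and 5.19% of the reads. Below these, Hsp90ab1 ranked 37, Hspa8 59, Hsp90aa1 102, Hspa5 161, Dnajb1 310 and Hspa12b 323. Of the 39 genes, 9 had a mean of at least 100 FPKM and 9 had a mean under 10 FPKM, with the lowest means at 1.17 FPKM for Hspa4l and 1.14 FPKM for Hsf2. The plot of levels by class shows this order.

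**Figure D1:**
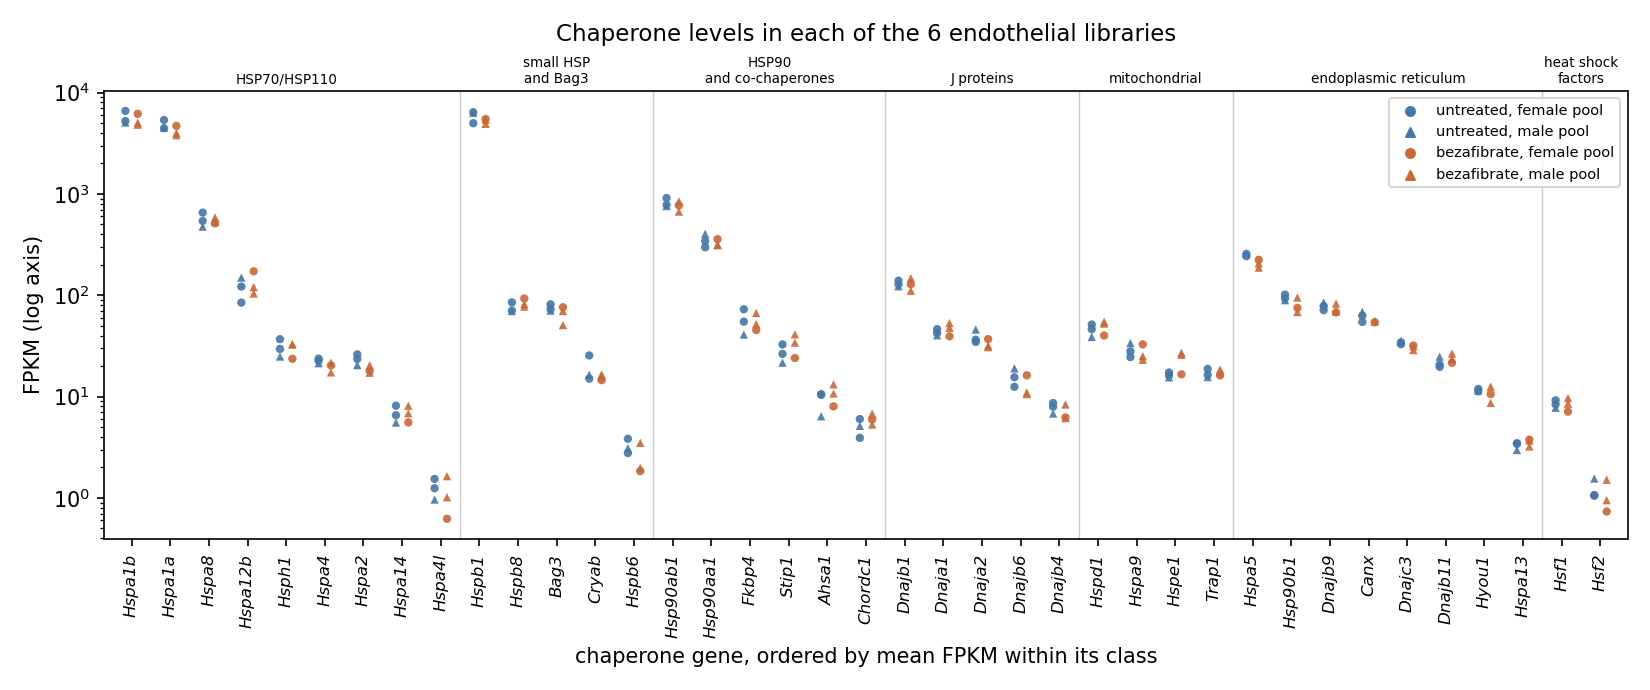
FPKM on a log axis (y) of each of the 39 chaperone genes (x, grouped by class), with 1 point per library, blue for untreated and orange for bezafibrate, circles for female and triangles for male pools. Hspa1b, Hspa1a and Hspb1 lie between 3798 and 6592 FPKM in every library, and the points of the groups overlap for all genes but Hspa2, Hspa5 and Dnajc3.

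The levels varied little between libraries. The highest library was 1.41 times the lowest for the median chaperone gene, against 1.69 times for the median of all 11277 genes and 1.52 times for the 411 genes with a mean of at least 100 FPKM. The ratio ran from 1.20 to 2.64 among the 39 genes, with the largest at Hspa4l, one of the lowest in level. FPKM was divided by the summed exon length of a gene, so genes with long rare exons read low in comparisons between genes. Dnaja1, for example, has a length of 8629 bases in the table, while its longest coding transcript has 5622 bases. For Hsf2 these lengths were 9606 and 2604 bases, and for Dnajb4 8765 and 2464 bases.

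The depth and the makeup of the libraries were checked next. Whole reads recovered from FPKM and length numbered between 16858130 and 20228619 per library. Endothelial markers were high in every library, with Pecam1 (CD31) at 206.9 to 291.3 FPKM, while Ptprc (CD45) stayed below 1 FPKM in every library and Pdgfrb was at 6.29 to 12.2 FPKM. All 5 choroid plexus and ependyma markers were measured, with summed levels of 357 to 399 FPKM in untreated and 404 to 935 FPKM in bezafibrate libraries. Nearly all of that sum was Ttr, at 349 to 389 FPKM in untreated and 397 to 919 FPKM in bezafibrate libraries. Clic6 was also higher in every bezafibrate library, while Folr1, Kcnj13 and Foxj1 overlapped between groups. All 6 oligodendrocyte markers were measured, at 78.9 to 133.9 against 76.4 to 85.1 FPKM. The 8 pericyte markers summed to 193 to 340 against 186 to 264 FPKM, and the 7 astrocyte markers to 41.1 to 63.3 against 27.9 to 50.6 FPKM. The smooth muscle markers summed to 66.4 to 91.3 against 77.3 to 105 FPKM, and the erythrocyte markers to 45.0 to 296 against 51.3 to 147 FPKM. Of 6 neuronal markers, 5 were below 1 FPKM in every library, Snap25 and Syt1 among them, and of 8 microglial markers 3 were, Cx3cr1, Ptprc and Aif1. The part of these cells in the chaperone levels was not tested, and in bulk libraries fewer cells of a type and less RNA per cell cannot be told apart.

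The first comparison asks whether bezafibrate changed chaperone transcripts. None of the 39 genes passed the test (limma on log2(FPKM + 1), adjusted p under 0.05 over all genes), and the test called 1 of 11277 genes (0.00887%). At an unadjusted p under 0.05, 0 of the 39 passed, against 2.10% of all genes higher with bezafibrate and 2.08% lower. Each of the 39 adjusted p-values was 0.999 by limma. Fitting the recovered reads with limma-voom also called 0 of the 39. The difference was positive for 12 genes and negative for 27, with a median of -0.09, beside a median of -0.01 over all genes. That split depends on the scaling. After rescaling to TPM (FPKM set to the same sum in each library) it was 22 positive and 17 negative, with medians of 0.02 for the 39 genes and 0.10 for all genes. After quantile scaling it was 19 positive and 20 negative.

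**Figure D2:**
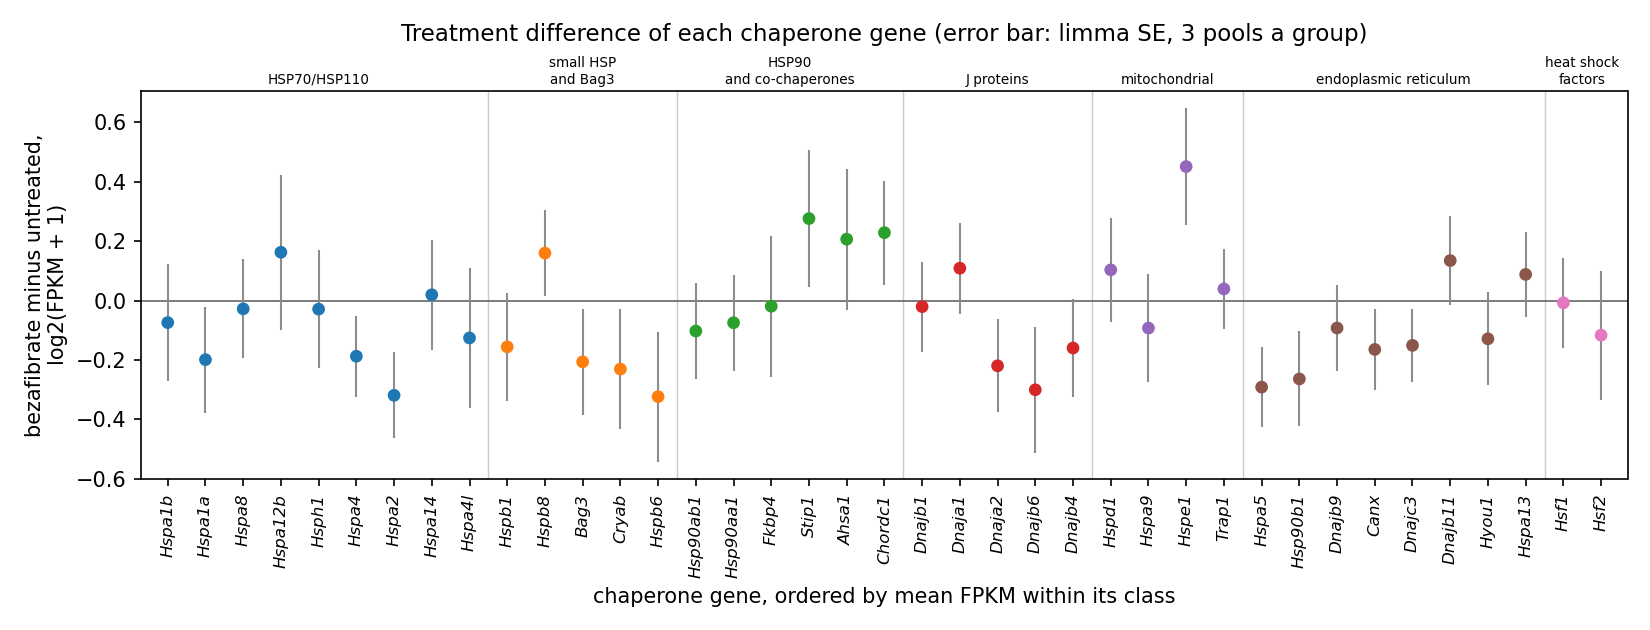
Difference between bezafibrate and untreated libraries in log2(FPKM + 1) (y) for each of the 39 chaperone genes (x, grouped and coloured by class), with the limma standard error as the bar. The differences run from -0.32 for Hspb6 to 0.45 for Hspe1, and none passed the adjusted test.

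In the HSP70 and HSP110 family, the inducible genes Hspa1a (ENSMUSG00000091971, chr17:34969190-34972156, minus strand) and Hspa1b (ENSMUSG00000090877, chr17:34956436-34959238, minus strand) encode nearly the same protein, the main stress-induced HSP70. Hspa1b stood at 5235, 6592 and 5070 FPKM in untreated F_1, F_2 and M_1 and at 6168, 4818 and 5046 FPKM in bezafibrate F_1, M_1 and M_2. Hspa1a stood at 4447, 5358 and 4505 FPKM in the untreated and at 4684, 3798 and 3990 FPKM in the bezafibrate libraries, in the same order. Both genes were highest in untreated F_2 and lowest in bezafibrate M_1 and M_2, and the groups overlapped. The difference was -0.07 (SE 0.196) for Hspa1b and -0.20 (SE 0.179) for Hspa1a on the log2 scale, and that of Hspa1b turned positive (0.04) in TPM.

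The split of reads between this pair is uncertain. Their coding sequences align with 8 differing bases of 1923 and a gap of 3 bases, an identity of 99.6%. Windows of 75 bases, the read length, that occur in both transcripts made up 52.7% of the windows of Hspa1a and 55.8% of those of Hspa1b. No source used here gives how reads matching both were assigned. The summed reads of the pair made up 2.53% to 3.35% of the reads of a library. That sum does not depend on the split if each read matching both was counted once. It would change if such reads were dropped or counted for both genes.

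**Figure D3:**
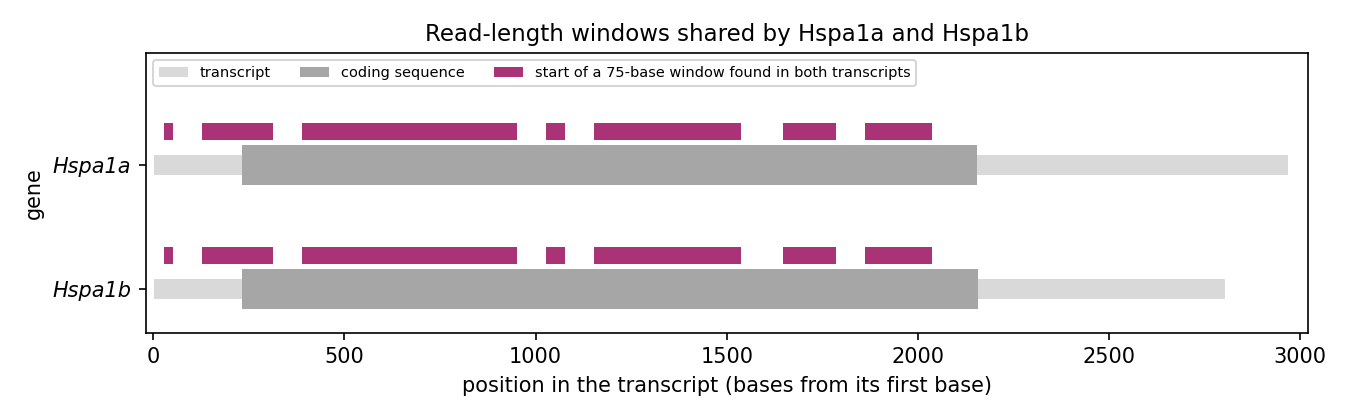
Map of the Hspa1a and Hspa1b transcripts (x, position in bases from the first base of the transcript), with the coding sequence in dark grey and, in purple, the start positions of 75-base windows found in both transcripts. The shared starts, 1524 in each transcript, lie in and before the coding sequence, and the end of each transcript holds none.

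Hspa2 (ENSMUSG00000059970, chr12:76404176-76406938, plus strand), an HSP70 gene best known from the testis, was at 26.1, 23.5 and 20.5 FPKM in the untreated and at 17.9, 20.3 and 17.2 FPKM in the bezafibrate libraries. Every bezafibrate library was lower than every untreated one, by a narrow margin between untreated M_1 and bezafibrate M_1. The difference was -0.32 (SE 0.145, unadjusted p = 0.0602, adjusted p = 0.999 by limma). Groups did not overlap, with bezafibrate lower, for 3 of the 39 genes (Hspa2, Hspa5 and Dnajc3), against 4.13% of all genes. They did not overlap with bezafibrate higher for 0 of the 39, against 4.29% of all genes. After rescaling to TPM, Hspa5 alone of these 3 still had groups apart, and Hspb8 had them apart with bezafibrate higher. After quantile scaling none of the 3 had groups apart, and Dnaja2 had them apart with bezafibrate lower.

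The other HSP70 genes overlapped between groups. Hsph1, the inducible HSP110 that exchanges nucleotide for HSP70, was at 29.5, 36.9 and 24.8 FPKM in the untreated and 23.6, 32.7 and 32.9 FPKM in the bezafibrate libraries. Its lowest values were those of untreated M_1 and bezafibrate F_1, and its difference was -0.03 (SE 0.198), positive in TPM (0.09) and after quantile scaling (0.04). Hspa8, the constitutive HSC70, averaged 557 ± 90.4 FPKM (SD, n = 3) untreated and 542 ± 37.8 FPKM (SD, n = 3) with bezafibrate. Of its 75-base windows, 68.0% occur in other genes, most of them in the pseudogene Gm15459, which is listed at 0 in every library. Hspa12b, a distant HSP70 relative known from endothelium, ran from 84.6 FPKM in untreated F_1 to 172 FPKM in bezafibrate F_1, and its difference of 0.16 (SE 0.261) was the highest of the class. Hspa4, Hspa14 and Hspa4l had means of 22.5, 6.74 and 1.25 FPKM untreated and 19.7, 6.84 and 1.09 FPKM with bezafibrate. The class had 2 positive and 7 negative differences and a median of -0.07, which was 0.04 in TPM.

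Among small heat shock proteins, which hold unfolded clients without ATP, Hspb1 (HSP25, ENSMUSG00000004951, chr5:135887919-135889563, plus strand) was the most abundant of the 39 genes by mean FPKM. It was at 4978, 6394 and 6321 FPKM in the untreated and at 5479, 4913 and 5406 FPKM in the bezafibrate libraries. Untreated F_2 and M_1 lay above all bezafibrate libraries and untreated F_1 lay among them. The difference was -0.16 (SE 0.182). Hspb1 is short, with 1031 bases, and 47.3% of its 75-base windows also occur in the processed pseudogene Hsp25-ps1, which was at 11.6 to 20.9 FPKM.

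Bag3, the partner of Hspb8 that hands clients of HSP70 to autophagy, was at 81.3, 72.9 and 70.6 FPKM in the untreated and 76.2, 50.8 and 69.9 FPKM in the bezafibrate libraries. Bezafibrate M_1 stood below the rest, and the difference was -0.21 (SE 0.178). Hspb8 had the highest difference of the class, 0.16 (SE 0.146), with means of 75.2 ± 8.58 FPKM untreated and 84.0 ± 7.97 FPKM with bezafibrate (SD, n = 3 each). Hspb6 had the lowest, -0.32 (SE 0.218), at 3.23 ± 0.546 and 2.44 ± 0.918 FPKM (SD, n = 3 each). Cryab, the alpha-B crystallin, was 25.5 FPKM in untreated F_1 and 14.5 to 16.5 FPKM in the other libraries, and 17.0% of its exon bases overlap Hspb2 on the other strand. The class median was -0.21, and -0.09 in TPM.

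Of the cytosolic HSP90 genes, the constitutive Hsp90ab1 was at 778, 910 and 758 FPKM in the untreated and at 770, 842 and 669 FPKM in the bezafibrate libraries. The inducible Hsp90aa1 was at 298, 342 and 403 FPKM in the untreated and at 358, 315 and 311 FPKM in the bezafibrate libraries. Groups overlapped for both genes, and Hsp90ab1 was above Hsp90aa1 in every library. Their differences were -0.10 (SE 0.161) and -0.07 (SE 0.162), and both turned positive in TPM (0.01 and 0.04) and after quantile scaling (0.15 and 0.09). For Hsp90aa1, 53.1% of 75-base windows occur in other genes, mostly in the pseudogene Gm12346, which was at 6.44 to 11.5 FPKM.

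The HSP90 co-chaperones had positive differences in 3 of 4 genes, all but Fkbp4. Stip1, which links HSP70 to HSP90, had the highest difference of the class, 0.28 (SE 0.232), with means of 26.9 ± 5.57 FPKM untreated and 33.1 ± 8.64 FPKM with bezafibrate (SD, n = 3 each). Ahsa1, which speeds the ATPase of HSP90, had means of 9.12 ± 2.36 and 10.6 ± 2.59 FPKM, and Chordc1 5.02 ± 1.05 and 6.003 ± 0.745 FPKM (SD, n = 3 each). Fkbp4, a co-chaperone of steroid receptor complexes, had means of 56.2 ± 15.9 and 54.7 ± 10.999 FPKM (SD, n = 3 each), and its difference turned positive in TPM (0.10) and after quantile scaling (0.05). Values of the groups overlapped in each of these genes.

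The J proteins of the cytosol were led by Dnajb1 (HSP40), the inducible partner of HSP70, at 128, 139 and 123 FPKM in the untreated and 128, 111 and 147 FPKM in the bezafibrate libraries. The bezafibrate libraries held both the lowest and the highest value. Its difference was -0.02 (SE 0.151), and it turned positive in TPM (0.10) and after quantile scaling (0.09). Dnaja1 had the highest difference of the class, 0.11 (SE 0.153), and Dnajb6, which keeps polyglutamine proteins from aggregating, the lowest, -0.30 (SE 0.213). Pseudogenes and other genes hold 33.3% of the 75-base windows of Dnajb6. Dnaja2 had means of 38.96 and 33.2 FPKM and Dnajb4 of 7.79 and 6.91 FPKM, untreated first.

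The mitochondrial chaperonin is made by the pair Hspd1 and Hspe1. Hspd1 (HSP60, ENSMUSG00000025980, chr1:55077835-55088243, minus strand) was at 46.2, 51.4 and 38.8 FPKM in the untreated and at 40.0, 52.5 and 54.6 FPKM in the bezafibrate libraries. Hspe1 (HSP10, ENSMUSG00000073676, chr1:55088132-55091307, plus strand) was at 16.2, 17.3 and 15.5 FPKM in the untreated and at 16.6, 25.8 and 27.0 FPKM in the bezafibrate libraries. Both genes were highest in bezafibrate M_1 and M_2, and bezafibrate F_1 lay among the untreated libraries. Hspe1 had the largest difference of the 39 genes, 0.45 (SE 0.197, unadjusted p = 0.0526, adjusted p = 0.999 by limma), and Hspd1 had 0.10 (SE 0.175). Hspe1 was chosen for its values after they were seen. Its difference ran from 0.26 with the composition ratio of the library as a covariate to 0.66 without bezafibrate F_1 (adjusted p = 0.253 by limma), and was 0.36 with sex as a covariate. The exons of the pair overlap on opposite strands, over 7.60% of the exon bases of Hspe1, and no source used here states whether strand was used in counting.

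The other mitochondrial chaperones had smaller differences than Hspe1. Hspa9 (mortalin), the HSP70 of the matrix that also pulls proteins through the inner membrane, had means of 28.7 ± 4.64 and 26.9 ± 5.10 FPKM, with a difference of -0.09 (SE 0.183) that was 0.02 in TPM. Trap1, the mitochondrial HSP90, had means of 16.9 ± 1.63 and 17.4 ± 1.14 FPKM (SD, n = 3 each for both genes). The median of the class was 0.07.

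Of the 8 ER chaperones, 6 had a negative and 2 a positive difference, with a median of -0.14, or -0.03 in TPM. Hspa5 (BiP, ENSMUSG00000026864, chr2:34771970-34777547, plus strand), the HSP70 of the ER and the best known target of the unfolded protein response, was at 256, 243 and 256 FPKM in the untreated and at 224, 187 and 207 FPKM in the bezafibrate libraries. Every bezafibrate library was below every untreated one. The difference was -0.29 (SE 0.135, unadjusted p = 0.0647, adjusted p = 0.999 by limma), a factor of 0.817 on that scale, and it was -0.17 in TPM. Dnajc3 (p58IPK, ENSMUSG00000022136, chr14:118937976-118981697, plus strand), a J protein of the ER that partners with BiP, was at 34.3, 32.9 and 35.3 FPKM in the untreated and at 31.8, 31.4 and 28.8 FPKM in the bezafibrate libraries. The groups did not overlap, and the difference was -0.15 (SE 0.122, adjusted p = 0.999 by limma), or -0.04 in TPM.

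The remaining ER chaperones overlapped between groups. Hsp90b1 (GRP94), the HSP90 of the ER, had means of 94.7 ± 6.04 FPKM untreated and 79.4 ± 13.8 FPKM with bezafibrate, and Canx (calnexin), the lectin chaperone of glycoproteins, 61.9 ± 6.99 and 54.9 ± 0.625 FPKM (SD, n = 3 each). Hyou1, the ER relative of HSP110, had means of 11.6 and 10.6 FPKM and Dnajb9, a J protein that represses the stress sensor IRE1, of 78.0 and 73.2 FPKM. The positive differences were those of Dnajb11, 0.13 (SE 0.149), and Hspa13, which had means of 3.28 and 3.55 FPKM. The 4 genes whose promoters hold an ERSE (Hspa5, Hsp90b1, Canx and Dnajc3) all had negative differences. So did Hyou1, which had no promoter window to search, and Dnajb9, whose window held no ERSE. The difference of Dnajb9 turned positive in TPM (0.02) and after quantile scaling (0.01).

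Hsf1 (ENSMUSG00000022556, chr15:76477422-76501913, plus strand), which encodes the main regulator of the heat shock response, ranked 4457 of the 54532 genes by mean FPKM. Its length in the table is 7099 bases and its longest coding transcript has 2104 bases, so its FPKM may read low. Hsf1 was at 9.16, 8.37 and 7.76 FPKM in the untreated and 7.11, 8.51 and 9.66 FPKM in the bezafibrate libraries. The bezafibrate libraries held both the lowest and the highest value. The difference was -0.01 (SE 0.152), which turned positive in TPM (0.11), and -0.12 (SE 0.217) for Hsf2. Regulation of HSF1 acts mainly on the protein, which these data do not measure.

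Other folding genes were counted for comparison. None of them passed the adjusted test. The chaperonin TRiC, which folds actin and tubulin, had 6 positive and 2 negative differences among 8 subunits, with a median of 0.03, and prefoldin, which feeds it, 3 and 3 among 6, with a median of 0.02. Further HSP90 and HSP70 co-chaperones had 15 positive and 7 negative differences among 22, with a median of 0.04. The highest was that of Fkbp5, 0.49 (SE 0.745), and the lowest that of Bag2, -0.29 (SE 0.136). Further J proteins had 15 positive and 12 negative among 27, with a median of 0.01, from -0.32 for Dnajb5 to 0.33 for Dnajc17. Of 11 further heat shock proteins and factors, 5 were measured, with 2 positive and 3 negative differences, from Serpinh1 (-0.22), the collagen chaperone, to Hsf4 (0.27). In TPM, where the median of all genes was 0.10, the medians were 0.15 for TRiC, 0.14 for prefoldin, 0.16 for the co-chaperones and 0.12 for the J proteins.

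In the unfolded protein response and ER folding list, 7 differences were positive and 19 negative among the 26 genes measured of 28, with a median of -0.09, or 0.01 in TPM. Creld2 was highest (0.18) and Atf4, a transcription factor of that response, lowest (-0.35). Groups did not overlap, with bezafibrate lower, for 3 of the 26, against 4.13% of all genes. These were Calr, Pdia3 and Ero1l, which fold glycoproteins and form disulphide bonds and are named because their values were seen. Calr was at 149, 156 and 153 FPKM in the untreated and 124, 134 and 124 FPKM in the bezafibrate libraries, a difference of -0.26 (SE 0.123, adjusted p = 0.999 by limma). In mitochondrial protein quality control, 9 differences were positive and 6 negative among 15, with a median of 0.05. Grpel2, an exchange factor of mortalin, had the highest difference, 0.57, with 0.740, 0.780 and 0.762 FPKM untreated and 1.86, 1.47 and 1.52 FPKM with bezafibrate. It passed the filter on low values only through the bezafibrate group, so it had to differ and its p is not given. Its paralog Grpel1 was lowest at -0.23 (SE 0.135).

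Immediate early genes, which tissue dissociation is known to induce along with Hspa1a and Hspa1b, were read beside the inducible chaperones. Of 31 measured, 30 had negative differences and 1 a positive one, with a median of -0.26, or -0.14 in TPM, and 0 passed the adjusted test. Their mean log2 level was 7.76, 7.72 and 7.60 in the untreated and 7.49, 7.16 and 7.34 in the bezafibrate libraries, without overlap. At an unadjusted p under 0.05, 6 of the 31 were lower with bezafibrate, against 2.08% of all genes, and groups did not overlap with bezafibrate lower for 10, against 4.13%. The lowest difference was that of Egr3 (-1.02) and the highest that of Jun (0.0049). Between the sexes, with treatment as a covariate, 26 of the 31 were lower in males and 5 higher, with a median of -0.17. Males gave 2 bezafibrate libraries and 1 untreated library. The 7 HSF1-inducible chaperones Hspa1a, Hspa1b, Hspb1, Hsph1, Dnajb1, Hsp90aa1 and Bag3 each overlapped between groups. Their differences were also all negative, from -0.21 for Bag3 to -0.02 for Dnajb1, beside a median of -0.01 over all genes. In TPM those of Hspa1b, Hsph1, Dnajb1 and Hsp90aa1 were positive, and those of Hspa1a, Hspb1 and Bag3 stayed negative. The part of dissociation in the chaperone levels was not tested.

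The libraries did not fall apart by treatment. The first principal component held 39.3% of the variance. Its scores were 30.3 for untreated M_1 and 24.4 for bezafibrate F_1, and ran from -22.6 to 1.62 for the remaining 4 libraries. For 11 of the 39 chaperone genes (28.2%) these 2 libraries held the lowest values, against 14.8% of all genes, and for 5 (12.8%) the highest, against 17.1%. The lowest values fell there for Hspa8, Hsph1, Hspa4l, Hspa14, Ahsa1, Stip1, Fkbp4, Dnaja1, Hspd1, Trap1 and Hsf1. The highest fell there for Hspa12b, Hsp90aa1, Dnaja2, Dnajb6 and Hspa9. None of the 8 ER chaperones and none of the 5 genes of the small heat shock protein class was in either set. This pattern was seen first and counted afterwards.

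**Figure D4:**
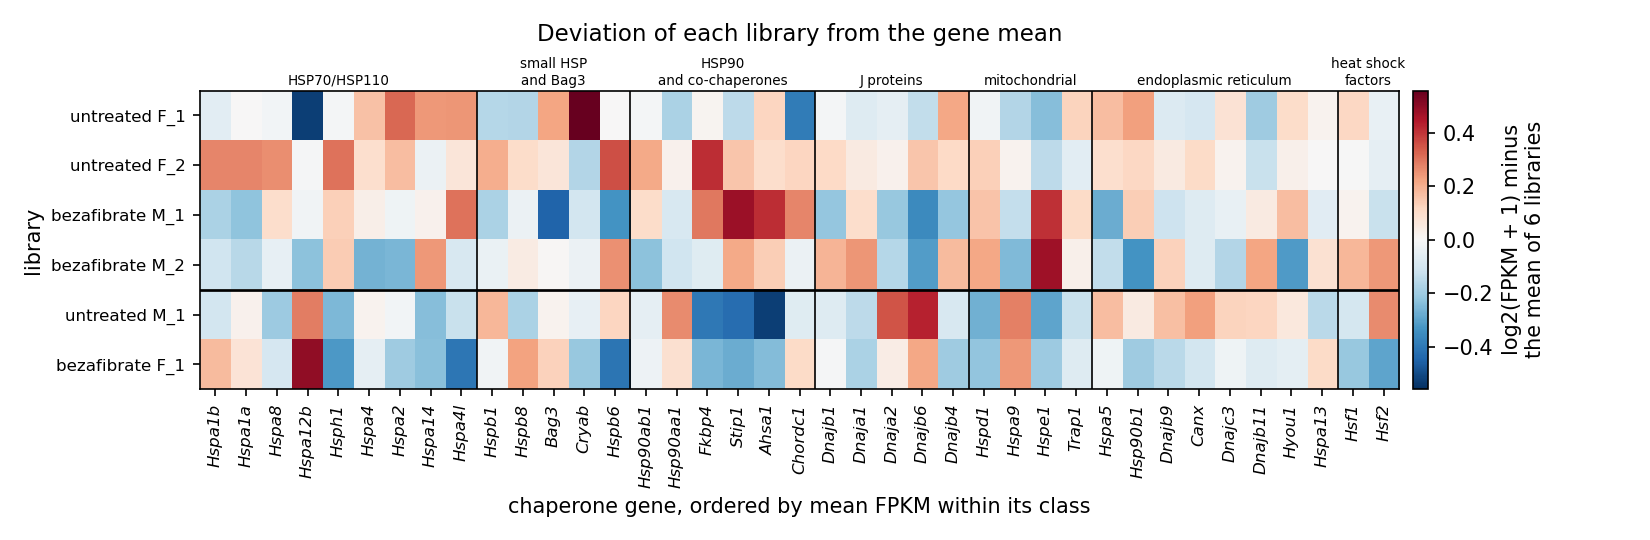
Log2(FPKM + 1) of each library (rows) minus the mean of the 6 libraries for each of the 39 chaperone genes (columns, grouped by class), red for higher and blue for lower. Untreated M_1 and bezafibrate F_1, below the thick line, are both blue for co-chaperones such as Stip1, Ahsa1 and Fkbp4 and both red for Hspa12b and Dnajb6.

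Ahsa1 shows the pattern, with 10.6, 10.4 and 6.40 FPKM in the untreated and 8.01, 13.2 and 10.7 FPKM in the bezafibrate libraries. Stip1 was at 26.4, 32.7 and 21.6 FPKM in the untreated and at 24.01, 41.2 and 34.1 FPKM in the bezafibrate libraries. Dnajb6 was reversed, with 12.5, 15.5 and 19.0 FPKM in the untreated and 16.2, 10.6 and 10.96 FPKM in the bezafibrate libraries. These 3 were chosen after their values were seen. Fkbp5, a co-chaperone that glucocorticoids are known to induce, was at 2.52, 9.62 and 31.5 FPKM in the untreated and 21.9, 7.67 and 16.0 FPKM in the bezafibrate libraries, highest in the same 2.

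These 2 libraries are the single male library of the untreated and the single female library of the bezafibrate group. Every bezafibrate library lay on one side of every untreated library in females and on the other side in males for 16 of the 39 genes, against 41.6% of all genes, a share near the background. These 16 are the 11 and 5 genes just named. A pattern shared by the 2 libraries and an opposite response of females and males to bezafibrate therefore cannot be told apart. An interaction of treatment and sex, fitted with limma after the pattern was seen, called 0 of the 39 genes, against 0.665% of all genes. At an unadjusted p under 0.05 it called 10 of the 39, against 21.3% of all genes. Without both libraries, 2 untreated female pools were left against 2 bezafibrate male pools, so treatment and sex cannot be told apart there. Those groups did not overlap, with bezafibrate lower, for 9 of the 39 genes, against 19.9% of all genes. They did not overlap, with bezafibrate higher, for 6, against 18.1%, and 0 of the 39 passed the adjusted limma test.

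The second comparison, between male and female libraries with treatment as a covariate, gave no call among the 39 genes by limma, against 0.0266% of all genes, and 0 at an unadjusted p under 0.05, against 2.94%. Of the 39 genes, 17 were higher and 22 lower in males, with a median of -0.01, beside -0.01 for all genes. In TPM the split was 22 and 17. The differences ran from -0.27 (SE 0.211) for Hspa1b to 0.33 (SE 0.207) for Hsf2. Males and females did not overlap for 1 of the 39 genes with males higher (Dnajb11), against 4.00% of all genes, and for 2 with males lower (Hspa1b and Bag3), against 3.94%. Hspa1b averaged 4978 ± 139 FPKM in males and 5998 ± 694 FPKM in females (SD, n = 3 each). Dnajb11 averaged 24.9 ± 1.56 FPKM in males and 20.6 ± 0.953 FPKM in females (SD, n = 3 each), a difference of 0.24 (SE 0.145).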

How the data were processed

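RNA-seq of 6 libraries, 3 untreated and 3 with bezafibrate, was read from 1 table of FPKM deposited by the authors. Per the labels' protocols, cDNA was made with SMART-Seq HT, libraries with Nextera XT, reads were single-end of 75 bases, de-duplicated and mapped with Salmon. Per the submitters' processing notes, the build was GRCm38. No source used here gives the Salmon version, how duplicates were defined, or how strand and reads matching several genes were treated. The untreated male library has another number in the table's header than in its title and was assigned by its description.

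FPKM times length gave whole reads for 100% of values (tolerance 0.01 reads). Hspb1 held 98.6 to 117 reads per base of its length. Genes that reached an FPKM of 1 in 3 or more libraries were fitted on log2(FPKM + 1), which understates changes of low genes, with limma 3.58.1 (trend, R 4.3.3, two-sided), Benjamini-Hochberg adjusted over 11277 genes. The fits were tested on simulated data. Alternatives were other pseudocounts, filters, scalings and covariates, limma-voom on recovered reads, and leaving out libraries.

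Windows of 75 bases were compared between GENCODE M21 transcripts, and promoters taken from RefSeq (GRCm38.p6). The members and lists were chosen with earlier results of these data known. Values by library are given for genes whose groups do not overlap or with an unadjusted treatment p under 0.05, for the highest gene of each class, and for 7 HSF1-inducible genes. Of other lists, the highest and lowest difference is named. Libraries of the same name in both groups were not treated as pairs in the main fit.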

Additional observations from a re-analysis of the deposited data

Results flagged for a closer look

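For 16 of the 39 chaperone genes, every bezafibrate library lay on one side of every untreated library in females and on the other side in males, against 41.6% of all genes. They are the same 11 and 5 genes whose lowest or highest values fell in untreated M_1 and bezafibrate F_1, so this is no second result. The values below are the treatment difference in males minus that in females, on the log2 scale. The difference was positive for 11 genes. It was 1.15 for Ahsa1, 1.05 for Stip1, 0.98 for Fkbp4, 0.85 for Hsph1, 0.79 for Hspa4l, 0.73 for Hspd1, 0.71 for Hspa14, 0.48 for Dnaja1, 0.47 for Hsf1, 0.44 for Hspa8 and 0.30 for Trap1. It was negative for 5 genes. It was -1.17 for Hspa12b, -0.97 for Dnajb6, -0.78 for Hspa9, -0.59 for Dnaja2 and -0.53 for Hsp90aa1.

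The interaction of treatment and sex, fitted with limma over all genes on 2 residual degrees of freedom, gave adjusted p-values from 0.0984 for Ahsa1 to 0.557 for Trap1 among these 16, so none passed, while it called 75 of 11277 genes. Each sex has 1 library in one of the groups, so these values rest on untreated M_1 and bezafibrate F_1, and a property of those libraries and a response that differs by sex cannot be told apart.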

How the results depend on the processing

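No chaperone gene passed the adjusted limma test in any of the 18 alternatives for treatment or the 12 for sex. For treatment, 1 gene of all tested was called, 0 with limma-voom, 0 with the replicate block, 0 without the pair of untreated M_1 and bezafibrate F_1, and 0 to 3 when leaving out 1 library. Without that pair, all untreated pools were female and all bezafibrate pools male. At an unadjusted p under 0.05, 1 chaperone gene passed without a filter on low values (Hspa2) and 1 in TPM (Hspe1). The number was 4 with array weights, 2 with the composition ratio (summed reads over the library size behind the FPKM) in the model and 2 without that pair, and ran from 0 to 4 when leaving out 1 library, with 4 without bezafibrate F_1 (Stip1, Dnajb6, Hspe1 and Hspa5). The median difference was 0.024 in TPM and 0.00 after quantile scaling, and -0.10 to -0.043 when leaving out 1 library. Genes without overlap numbered 3 to 8 with bezafibrate lower and 0 to 5 with bezafibrate higher when leaving out 1 library, the most without bezafibrate F_1. In each direction, TPM left 1 such gene. After quantile scaling there was 1 with bezafibrate lower and 0 with bezafibrate higher. For sex, 1 chaperone gene reached an unadjusted p under 0.05 after quantile scaling (Hspa1b). Leaving out 1 library gave 0 to 4 such genes, 1 to 4 genes called of all tested and medians of -0.12 (without bezafibrate F_1) to 0.061 (without untreated M_1).

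Of 698 differences of single chaperone genes under the alternatives for treatment, 65 had another sign than in the main fit, in 18 of the 39 genes, none of them called. Of the 23 genes whose difference is given above, these changed sign. In TPM they were Hspa1b (0.044), Hsph1 (0.087), Hsp90aa1 (0.043), Hsp90ab1 (0.015), Dnajb1 (0.097), Hspa9 (0.021) and Hsf1 (0.11). After quantile scaling they were Hsph1 (0.039), Hsp90aa1 (0.086), Hsp90ab1 (0.15) and Dnajb1 (0.090). Hsf1 was 0.00040 with limma-voom and 0.026 with array weights. With sex as a covariate Hspa1b was 0.015 and Dnajb1 0.0010. With the replicate block Hspa1b was 0.082, Hsph1 0.036 and Hsp90ab1 0.067. With the composition ratio in the model Hspa1b was 0.016, Hsp90aa1 0.059, Dnaja1 -0.0023, Hspa9 0.11 and Hspd1 -0.057. Without the pair Hsf1 was 0.045 and Hsf2 0.10. When leaving out 1 library the range was -0.18 to 0.044 for Hspa1b, -0.16 to 0.12 for Hsph1, -0.060 to 0.35 for Hspa12b, -0.18 to 0.038 for Hsp90aa1, -0.12 to 0.082 for Dnajb1, -0.24 to 0.025 for Hspa9, -0.0045 to 0.24 for Hspd1, -0.10 to 0.097 for Hsf1 and -0.27 to 0.00069 for Hsf2. The cause of these changes was not tested.

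The names F_1 and M_1 occur in both groups. The correlation of deviations from the group means was -0.363 for F_1 and -0.299 for M_1, which gave no sign of pairs. It cannot exclude them, since each value involves untreated M_1 or bezafibrate F_1, the libraries that stand apart. The number of the untreated male library also differs between header and title. With 3 libraries a group, an exact permutation test could not go below p = 0.1. Hspb6, Hsf2 and Hspa4l rested on the fewest reads, at most 157, 277 and 411 in a library.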
